A study of Homo sapiens with 8 samples.

Results

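The 10 genes considered set, relay or carry out signalling by mTORC1, the growth-promoting kinase complex, and their mRNA levels are described here in Panc1 cells, an established line of human pancreatic ductal adenocarcinoma. The genes were chosen by name, with earlier results of these data known. They are the brakes DDIT4, SESN1, SESN2 and SESN3, the TSC complex genes TSC1 and TSC2, the GTPase gene RHEB, and the core subunit genes MTOR, RPTOR and MLST8. All 10 were among the 15176 genes of the deposited table, and all 10 passed the filter on low values described under processing, as did 13112 genes in all. RNA was sequenced from 8 libraries. Cells given a control siRNA were kept at 21% oxygen (2 libraries, numbered 1 and 4 in their titles) or at 1% oxygen (3 libraries, 2, 5 and 8), and cells given an siRNA against SF3B1 were kept at 1% oxygen (3 libraries, 3, 6 and 9). SF3B1 encodes a core splicing factor of the U2 small nuclear ribonucleoprotein. Every group is the same line and received an siRNA; the labels give 8 hours at 1% oxygen for the SF3B1 siRNA cells, and whether that time also holds for the control siRNA cells is not clear from them. SF3B1 siRNA at 21% oxygen was not analysed here. Nothing in the labels says that libraries of a group are separate cultures; the p-values below therefore reflect library-to-library spread, which may be technical.

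mTORC1 is built around the kinase MTOR, with RPTOR, which presents substrates, and MLST8, which binds the kinase domain. RHEB in its GTP-bound form switches the kinase on at the lysosome, and the TSC complex, in which TSC2 acts on RHEB and TSC1 stabilises TSC2, switches RHEB off. DDIT4, also called REDD1, is a textbook target of HIF-1 that acts through the TSC complex in low oxygen. The sestrins act on the amino acid branch: SESN2 binds leucine and holds back GATOR2, an activator of that branch.

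The stretch before the start is shown for the 3 genes with the most reads among DDIT4 and the sestrins. This choice was made after the values were seen, because DDIT4 rose in hypoxia and its promoter carries letters known from HIF binding. RHEB, TSC2, MTOR and RPTOR, whose windows also hold such letters, did not pass the test in hypoxia and are not printed. The windows are 250 bases long and end at the base before the RefSeq start, on GRCh38.p14: chr10:72273674-72273923 on the plus strand for DDIT4, chr6:109094847-109095096 on the minus strand for SESN1 and chr1:28259268-28259517 on the plus strand for SESN2. Sequences are from RefSeq and read 5′ to 3′ on the strand of the gene; capitals mark ACGTG or GCGTG, the core of a hypoxia response element, searched on both strands.
DDIT4: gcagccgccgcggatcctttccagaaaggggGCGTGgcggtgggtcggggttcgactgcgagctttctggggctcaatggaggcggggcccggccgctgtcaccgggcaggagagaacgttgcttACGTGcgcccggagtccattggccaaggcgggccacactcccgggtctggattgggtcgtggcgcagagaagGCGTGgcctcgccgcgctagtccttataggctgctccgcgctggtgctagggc
SESN1: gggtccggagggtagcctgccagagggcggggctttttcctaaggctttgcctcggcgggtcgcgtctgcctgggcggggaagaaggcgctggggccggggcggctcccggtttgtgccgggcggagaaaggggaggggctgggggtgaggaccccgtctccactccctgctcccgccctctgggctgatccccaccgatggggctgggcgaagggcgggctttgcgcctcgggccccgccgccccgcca
SESN2: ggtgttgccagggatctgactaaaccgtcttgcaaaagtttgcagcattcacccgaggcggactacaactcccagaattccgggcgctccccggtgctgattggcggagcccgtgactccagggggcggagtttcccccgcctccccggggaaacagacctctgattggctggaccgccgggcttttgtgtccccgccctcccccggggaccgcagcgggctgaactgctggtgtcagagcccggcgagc

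DDIT4 held ACGTG once, from 125 to 121 bases before the start, and GCGTG at 2 places, from 219 to 215 and from 53 to 49 bases before it. Neither SESN1, SESN2, SESN3 nor TSC1 held either core in its window. A RefSeq window was found for 9 of the 10 members; RHEB held ACGTG once, TSC2 held it on both strands of a single palindrome, MTOR held GCGTG once, and RPTOR held GCGTG at 2 places. Such short letters are common: 18.5% of 35116 promoter windows of this length held ACGTG, 32.2% held GCGTG and 43.2% held at least 1 of them. TGATGCA, the first letters of the composite element of ATF4 and CEBP factors, was in the TSC2 window, where it shares bases with ACGTG, and in 2.16% of all windows. TGTTTAC, an element of FOXO factors, was in none of the 9 windows and in 2.98% of all. A match is a description of the letters only. Of the members with a core, DDIT4 had a hypoxia log2 fold change of 2.53. RHEB, TSC2, MTOR and RPTOR gave 0.04, -0.11, -0.02 and -0.06, none with a limma adjusted p under 0.05. Whether a core had a part in any of these values was not tested.

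The measurement is the deposited log2 CPM, reads scaled to library size (CPM) on a log2 scale, with an offset for low counts. Total reads over the listed genes ranged from 20496492 to 25257173 per library. The targeted gene SF3B1 stood at 8.87 and 8.77 log2 CPM on average in control siRNA cells at 21% and 1% oxygen and at 5.34 with SF3B1 siRNA, in the direction of the labels. The line was checked against 5 ductal markers, which did not stand at 1 level: KRT8 ranged from 11.35 to 12.60 log2 CPM over the 8 libraries, KRT18 from 9.97 to 11.12 and KRT19 from 9.84 to 11.11, while KRT7 was low, from 1.69 to 3.6, and so was EPCAM, from 2.81 to 3.31. Of 5 fibroblast markers COL1A1 and PDGFRB were listed, at a summed level of 12.7 to 54.4 CPM; COL1A1, from 3.62 to 5.73 log2 CPM, lay above EPCAM in every library. Of 5 blood and endothelial markers CD14 was listed, at 0.551 to 3.14 CPM. The titles number the libraries in sets of consecutive numbers, 1 to 3, 4 to 6 and 8 with 9, and libraries of the same set deviated together from their group means; the labels do not say what a set is. Libraries 8 and 9 are the highest of their groups for DDIT4 and SESN2 and the lowest for SESN3, and the fold changes and levels of these genes are given with and without them.

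**Figure D1:**
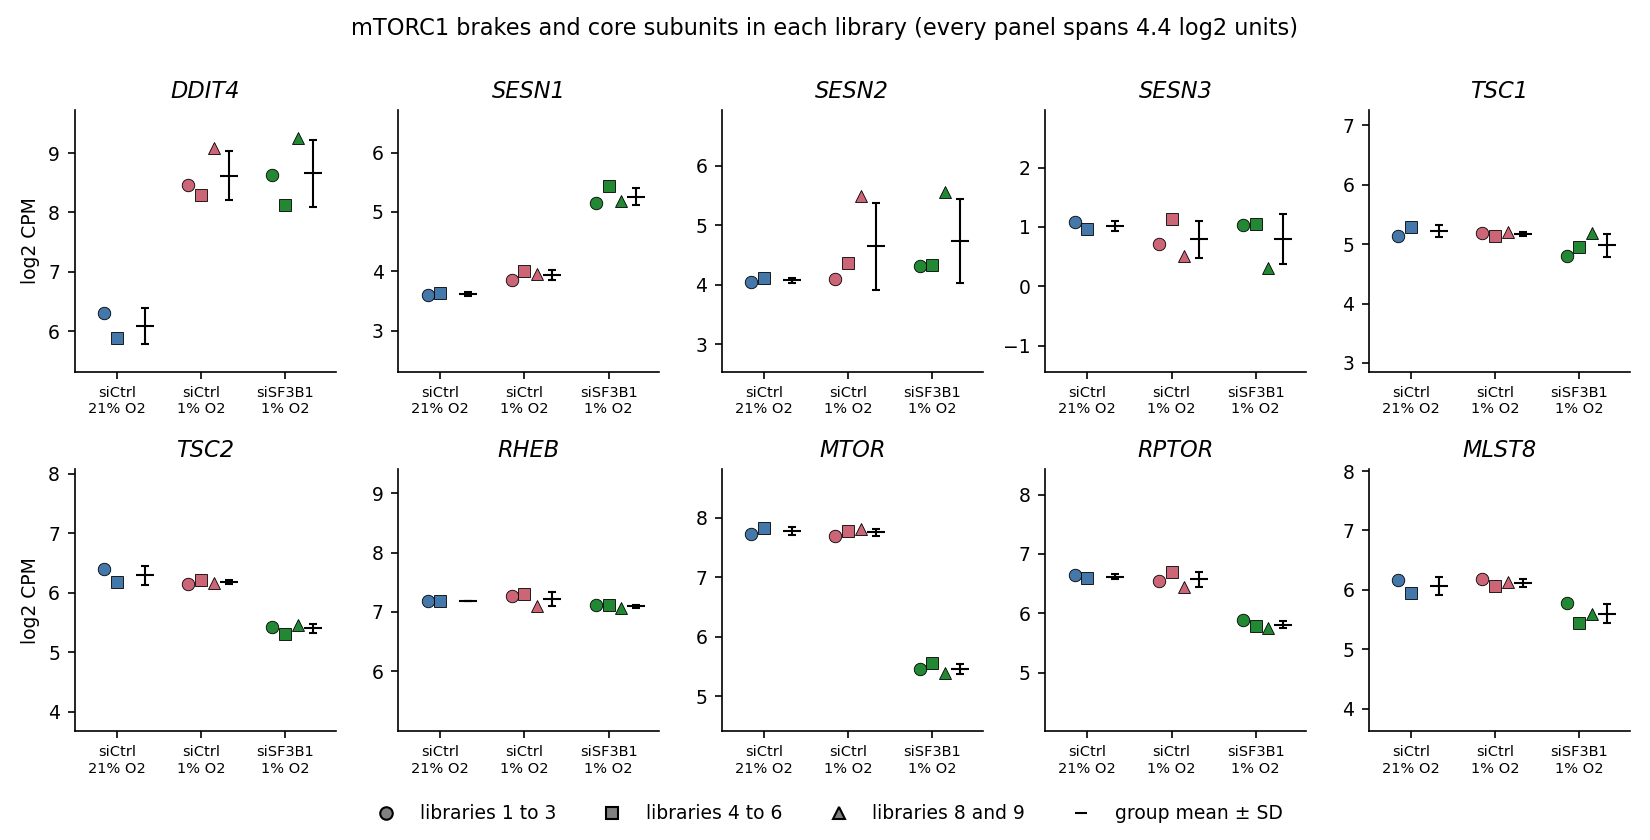
Each panel gives the log2 CPM of a gene in the 8 libraries, by group on the x axis, with the symbol marking the set of consecutive library numbers and the dash and bar giving the group mean and SD. DDIT4 is high in every library at 1% oxygen, MTOR is low in the 3 SF3B1 siRNA libraries, and SESN2 is high only in libraries 8 and 9.

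Control siRNA cells at 1% oxygen were first compared with those at 21% oxygen. DDIT4 rose, and no other member passed the test. DDIT4 (Entrez ID 54541, chr10:72273920-72276036, plus strand of GRCh38, 3 exons) stood at 6.31 and 5.88 log2 CPM in the libraries at 21% oxygen and at 8.47, 8.30 and 9.09 in the control siRNA libraries at 1% oxygen. The groups did not overlap, with a gap of 2.00 between the nearest libraries. With so few libraries a lack of overlap can arise by chance, and its share over all genes is not given here. The log2 fold change was 2.53 (SE 0.304, 95% CI 1.85 to 3.2), a 5.76-fold rise, with a limma adjusted p of 0.000754. In reads, DDIT4 went from 1867 and 1551 to between 6882 and 13069. Only 28 of the 13112 tested genes, DDIT4 included, had a hypoxia fold change at least as high, which is 0.214% of them. Within the sets the differences were 2.16 (library 2 against 1) and 2.42 (5 against 4), and with libraries 8 and 9 left out the log2 fold change was 2.29 (SE 0.19, adjusted p = 0.00115). In bulk samples such as these, more RNA per cell and more cells of a kind that express a gene cannot be told apart.

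Over all genes 5.65% were called in this comparison (limma, adjusted p under 0.05), 4.35% higher and 1.30% lower; among the members 1 of 10 was called. With the sets as a block 2 of 10 were called, DDIT4 and SESN1, against 12.5% of all genes (7.99% higher and 4.55% lower).

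SESN1 (Entrez ID 27244, chr6:108986437-109094819, minus strand, 10 exons), a stress-induced sestrin, was slightly higher at 1% oxygen without passing the test. It stood at 3.6 and 3.64 log2 CPM at 21% oxygen and at 3.85, 4.0 and 3.96 at 1% oxygen with control siRNA. These groups did not overlap, yet the gap was only 0.20. The log2 fold change was 0.31 (SE 0.108, limma adjusted p = 0.141), and with the sets as a block it was 0.32 (adjusted p = 0.0437).

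SESN2 (Entrez ID 83667, chr1:28259527-28282491, plus strand, 10 exons) followed the library sets more than the groups. It stood at 4.05 and 4.11 log2 CPM at 21% oxygen, at 4.10, 4.37 and 5.49 at 1% oxygen with control siRNA, and at 4.32, 4.34 and 5.56 with SF3B1 siRNA. The highest value of each hypoxic group is that of library 8 or 9, and the other 6 libraries lie within 4.05 to 4.37. The hypoxia log2 fold change was 0.57 (SE 0.424, 95% CI -0.37 to 1.52, limma adjusted p = 0.499) with all libraries. It was 0.16 without libraries 8 and 9 (SE 0.122, adjusted p = 0.644) and 0.16 with the sets as a block (SE 0.0915, adjusted p = 0.287).

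Genes of the integrated stress response were high in the same libraries. ATF4, the transcription factor of the integrated stress response, stood at 8.35 and 8.38 log2 CPM in libraries 8 and 9, against 7.09 to 7.72 in the other 6. DDIT3, which encodes CHOP, stood at 5.16 in library 8 against 4.24 and 4.01 in libraries 2 and 5, and at 6.02 in library 9 against 5.16 and 4.96 in libraries 3 and 6. TRIB3, a pseudokinase induced by ATF4, stood at 5.56 in library 8 and 6.09 in library 9 against 4.28 to 5.13 in the others. DDIT4 was likewise highest of its group in library 8 (9.09) and in library 9 (9.25). The part of these genes in the SESN2 and DDIT4 values was not tested.

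**Figure D2:**
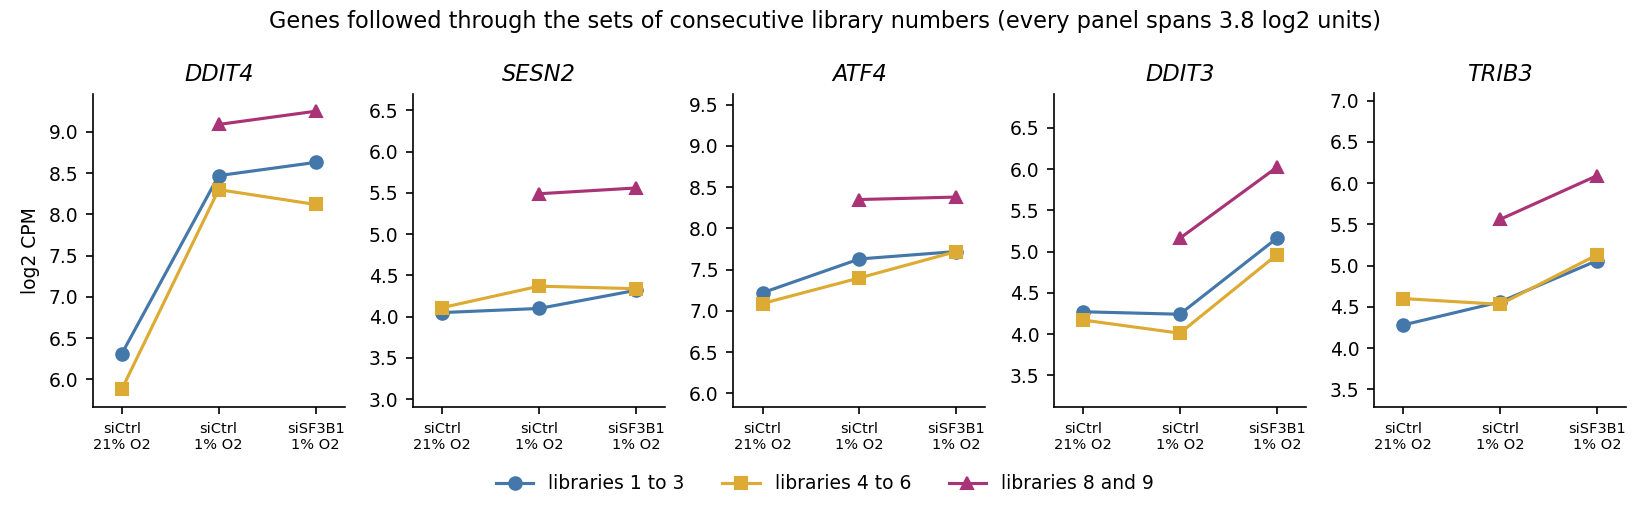
The y axis is log2 CPM, the x axis the 3 groups, and each line joins libraries of the same set of consecutive numbers; no library of the set with 8 and 9 was analysed here at 21% oxygen. The set with libraries 8 and 9 lies above the others in all 5 panels, and DDIT4 rises from 21% to 1% oxygen within both sets that have a normoxic library.

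SESN3 (Entrez ID 143686, chr11:95165513-95232541, minus strand, 10 exons), a sestrin known as a FOXO target, was near the lower end of what was tested. It had 48 and 49 reads at 21% oxygen, 36, 46 and 32 at 1% oxygen with control siRNA, and 41, 42 and 22 with SF3B1 siRNA. Its values overlapped in every pair of groups. The log2 fold change was -0.23 in hypoxia (95% CI -0.87 to 0.40) and 0.01 with SF3B1 siRNA (95% CI -0.56 to 0.58). Libraries 8 and 9 were the lowest of their groups, at 0.51 and 0.31 log2 CPM. In hypoxia the value was -0.04 with the sets as a block and -0.09 without libraries 8 and 9 (95% CI -0.65 to 0.46), and with SF3B1 siRNA it was 0.11 without them (95% CI -0.44 to 0.66). Changes within these intervals could not be told from the spread between libraries.

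The TSC genes, RHEB and the core subunits gave small differences in hypoxia, none past the test. At 21% oxygen MTOR stood at 7.73 and 7.83 log2 CPM, RPTOR at 6.65 and 6.6, and MLST8 at 6.16 and 5.95. In the same libraries TSC1 stood at 5.14 and 5.29, TSC2 at 6.4 and 6.18, and RHEB at 7.18 in both. Their log2 fold changes in hypoxia ran from -0.11 for TSC2 (95% CI -0.30 to 0.08) to 0.07 for MLST8 (95% CI -0.16 to 0.30). Within that range lay RPTOR at -0.06 (95% CI -0.25 to 0.13), TSC1 at -0.04 (-0.29 to 0.21), MTOR at -0.02 (-0.18 to 0.15) and RHEB at 0.04 (-0.12 to 0.20). The libraries at 21% and 1% oxygen overlapped for each of these 6 genes.

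At 1% oxygen, SF3B1 siRNA was then compared with control siRNA. MTOR fell most among the members, RPTOR, TSC2 and MLST8 fell less, SESN1 rose, and DDIT4 did not pass the test. Over all genes 66% were called in this comparison, 35.0% higher and 30.9% lower, so being called is common; among the members 5 of 10 were called, 1 higher and 4 lower. With the sets as a block 7 of 10 were called, 1 higher and 6 lower, against 73.7% of all genes (39.2% higher and 34.5% lower). With libraries scaled to plain read totals the median over all genes moved from 0.033 to -0.099 and the split of all called genes from 4595 higher and 4055 lower to 3540 higher and 4964 lower; each of the 5 members called kept its direction and its call.

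MTOR (Entrez ID 2475, chr1:11106535-11262507, minus strand, 58 exons), the kinase itself, stood at 7.69, 7.78 and 7.81 log2 CPM with control siRNA and at 5.46, 5.55 and 5.39 with SF3B1 siRNA. The groups lay 2.15 log2 units apart at their nearest. The log2 fold change was -2.30 (SE 0.0658, 95% CI -2.44 to -2.15, limma adjusted p = 2.52e-08), a level 4.92-fold lower. In reads, MTOR went from between 4775 and 5373 to between 795 and 989 per library. Within the sets the differences were -2.24, -2.23 and -2.42. Of the 13112 tested genes 49, MTOR included, fell at least as far, which is 0.374%.

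RPTOR (Entrez ID 57521, chr17:80544819-80966371, plus strand, 34 exons), which brings substrates to the kinase, stood at 6.55, 6.70 and 6.45 log2 CPM with control siRNA and at 5.88, 5.79 and 5.75 with SF3B1 siRNA. Its log2 fold change was -0.76 (SE 0.076, limma adjusted p = 1.28e-05), and the groups did not overlap. MLST8 (Entrez ID 64223, chr16:2204248-2209416, plus strand, 8 exons), a subunit of mTORC1 and mTORC2, stood at 6.19, 6.06 and 6.13 and at 5.77, 5.45 and 5.59. Its log2 fold change was -0.52 (SE 0.0932, adjusted p = 0.000656), again without overlap. MLST8 shares 160 of its 2187 exon bases with BRICD5 on the other strand, and its value is uncertain to that extent, because the sources used here do not state whether reads were counted by strand. BRICD5 was low, at a mean of 0.82 log2 CPM, and fell with SF3B1 siRNA as well (-1.14, adjusted p = 0.00196). All 3 core subunits were thus lower, and MTOR fell further than the others, whose intervals (-0.93 to -0.59 and -0.73 to -0.31) do not reach that of MTOR.

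TSC2 (Entrez ID 7249, chr16:2047465-2089487, plus strand, 42 exons), the part of the brake that acts on RHEB, stood at 6.15, 6.22 and 6.17 log2 CPM with control siRNA and at 5.43, 5.31 and 5.46 with SF3B1 siRNA. The log2 fold change was -0.78 (SE 0.0755, limma adjusted p = 1.04e-05), with no overlap. TSC2 shares 778 of its 7090 exon bases with PKD1 and 402 with NTHL1, both on the other strand, and is uncertain to that extent. PKD1 stood at a mean of 7.71 log2 CPM, above every TSC2 value, and NTHL1 at 4.35. With SF3B1 siRNA PKD1 gave 0.30 (adjusted p = 0.079) and NTHL1 gave -0.40 (adjusted p = 0.00579).

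TSC1 and RHEB lay near the threshold. TSC1 (Entrez ID 7248, chr9:132891348-132946874, minus strand, 23 exons) stood at 5.19, 5.14 and 5.20 log2 CPM with control siRNA and at 4.80, 4.95 and 5.19 with SF3B1 siRNA; the value of library 9 reached those of the controls. Its log2 fold change was -0.20 (SE 0.0998, limma adjusted p = 0.106). It was called lower with the sets as a block (-0.20, adjusted p = 0.0358), without library 9 (-0.30, adjusted p = 0.0167), without libraries 8 and 9 (-0.29, adjusted p = 0.043) and with plain read totals (-0.33, adjusted p = 0.0118). RHEB (Entrez ID 6009, chr7:151466012-151520120, minus strand, 8 exons) stood at 7.27, 7.30 and 7.10 with control siRNA and at 7.11, 7.12 and 7.07 with SF3B1 siRNA, with overlap. Its log2 fold change was -0.12 (SE 0.0654, 95% CI -0.27 to 0.02, adjusted p = 0.119), which was called with the block (adjusted p = 0.0451), without library 8 (-0.19, adjusted p = 0.0249), with quantile normalization (-0.21, adjusted p = 0.0132) and with plain read totals (-0.26, adjusted p = 0.00583).

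Among the brakes SESN1 moved the other way. It stood at 3.85, 4.0 and 3.96 log2 CPM with control siRNA and at 5.15, 5.43 and 5.19 with SF3B1 siRNA, and every SF3B1 siRNA library lay above every other library of the study by at least 1.15. The log2 fold change was 1.32 (SE 0.0969, 95% CI 1.11 to 1.54, limma adjusted p = 1.7e-06), a 2.50-fold rise. Within the sets the differences were 1.30, 1.43 and 1.23. Of all tested genes 283, or 2.16%, rose at least as far.

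DDIT4 with SF3B1 siRNA stood at 8.63, 8.12 and 9.25 log2 CPM, against 8.47, 8.30 and 9.09 with control siRNA. The groups overlapped throughout, and the difference was 0.04 (SE 0.272, 95% CI -0.56 to 0.65, limma adjusted p = 0.896). Within the sets it was 0.16, -0.19 and 0.16, and with the sets as a block the interval narrowed to -0.10 to 0.19 around the same 0.04. The sign turned on single libraries: it went from -0.25 without library 9 to 0.32 without library 6, and was -0.01 without libraries 8 and 9 (95% CI -0.46 to 0.43). SESN2 gave 0.08 (95% CI -0.76 to 0.93, adjusted p = 0.857), and with the block 0.08 (95% CI -0.09 to 0.25, adjusted p = 0.349). It went from -0.33 without library 9 to 0.5 without library 8, and was 0.09 without both (95% CI -0.20 to 0.38).

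**Figure D3:**
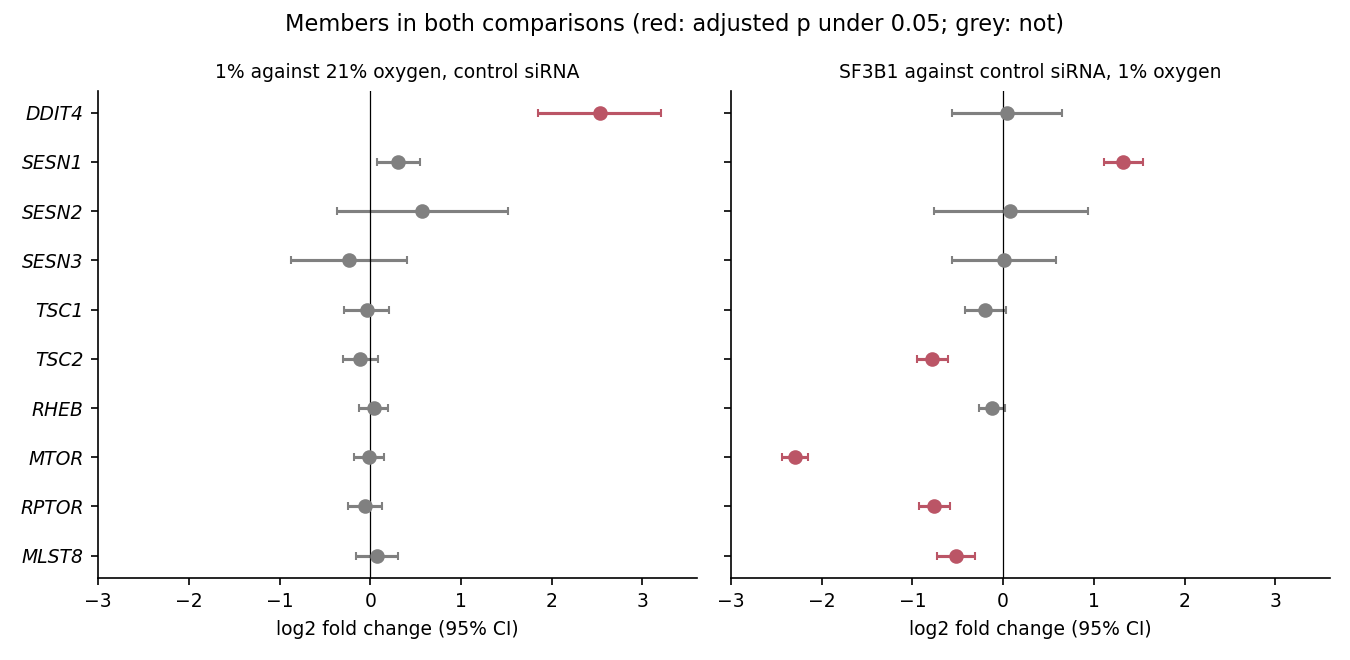
Points are log2 fold changes of the 10 members in both comparisons and bars their 95% CI from the limma fit; red marks an adjusted p under 0.05. In hypoxia DDIT4 alone is red, at 2.53, and with SF3B1 siRNA SESN1 is red on the right at 1.32 and TSC2, MTOR, RPTOR and MLST8 on the left.

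SF3B1 siRNA at 1% oxygen was also set against control siRNA at 21% oxygen, a comparison that shares its libraries with the other 2 and is their sum. DDIT4 was 5.94-fold higher (log2 fold change 2.57, SE 0.304, limma adjusted p = 5.03e-05) and SESN1 3.11-fold higher (1.64, SE 0.108, adjusted p = 1.35e-06). MTOR was 4.98-fold lower (-2.32, SE 0.0735, adjusted p = 4.73e-08), TSC2 1.85-fold, RPTOR 1.76-fold and MLST8 1.37-fold lower. The MLST8 call was lost without library 1 (adjusted p = 0.0503). With this pair of groups 6 of 10 members were called, 2 higher and 4 lower, against 62.4% of all genes (34.1% higher and 28.3% lower); with the sets as a block TSC1 (-0.29, adjusted p = 0.0116) and SESN2 (0.24, adjusted p = 0.0302) were called as well, against 69.5% (38.2% higher and 31.3% lower). With all libraries and no block SESN2 gave 0.66 (SE 0.424, adjusted p = 0.2) and TSC1 gave -0.24 (adjusted p = 0.088). Without libraries 8 and 9 SESN2 gave 0.25 (adjusted p = 0.124), DDIT4 2.28 (adjusted p = 0.000107), SESN3 0.02 and TSC1 -0.34, which was called. RHEB gave -0.08 (adjusted p = 0.342) and was called with plain read totals (-0.25, adjusted p = 0.0127) and quantile normalization (-0.20, adjusted p = 0.0337).

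Levels were also set against each other per length, as CPM per kilobase of exons of the coding transcripts in GENCODE release 29. In control siRNA cells at 21% oxygen RHEB was highest at 59.9 ± 0.137 CPM per kilobase (SD, n = 2), followed by DDIT4 at 39.5 ± 8.2, MLST8 at 30.5 ± 3.23, MTOR at 23.2 ± 1.16, RPTOR at 13.7 ± 0.347 and TSC2 at 11 ± 1.17. SESN2 at 4.87 ± 0.144, TSC1 at 3.63 ± 0.257, SESN1 at 3.10 ± 0.0592 and SESN3 at 0.19 ± 0.0121 were the lowest. No neighbours in this order overlapped in their 2 libraries, which is a description of few values. At 1% oxygen with control siRNA DDIT4 led the order at 232 ± 70.6 CPM per kilobase (SD, n = 3), ahead of RHEB at 61.7 ± 4.65; SESN2, from 4.95 to 13, overlapped RPTOR and TSC2. Without library 8 DDIT4 still led at 191 and SESN2, from 4.95 to 5.98, lay below both genes. With SF3B1 siRNA MTOR went from the fourth place to the eighth, at 4.66 ± 0.262 (SD, n = 3), below TSC2 at 5.95 ± 0.316 and RPTOR at 7.77 ± 0.345. SESN1, at 9.72 ± 1.05, then stood above all 3 of these genes and in the range of SESN2, from 5.75 to 13.6. Without library 9 DDIT4 stood at 192, SESN2 at 5.75 to 5.82, below SESN1 and RPTOR and in the range of TSC2, SESN3 at 0.192, and MTOR in the same eighth place at 4.79.

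The members differ in the number of exons of their longest coding transcript, a property looked up after their values were seen. The 3 members with the most exons, MTOR with 58, TSC2 with 42 and RPTOR with 34, were also the 3 with the lowest log2 fold change with SF3B1 siRNA. DDIT4 has 3 exons and gave 0.04. The order did not hold throughout. TSC1, next with 23 exons, gave -0.20 and was not called, a smaller fall than that of MLST8. MLST8 and RHEB have 8 exons each and gave -0.52 and -0.12, and the sestrins have 10 each and gave 1.32, 0.08 and 0.01. Over the 11902 tested genes with a coding transcript in the annotation, the median log2 fold change with SF3B1 siRNA was 0.19 for genes of 1 exon, 0.14 for 2 to 4 exons, 0.17 for 5 to 9, 0.00 for 10 to 19, -0.18 for 20 to 39 and -0.35 for 40 or more. Of the 260 genes with 40 or more exons 51.9% were called lower, and MTOR and FANCD2 were the 2 with a log2 fold change of -2.30 or below. In hypoxia the same medians lay between -0.04 and 0.03. What exon number shares with gene length and coding length was not tested.

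**Figure D4:**
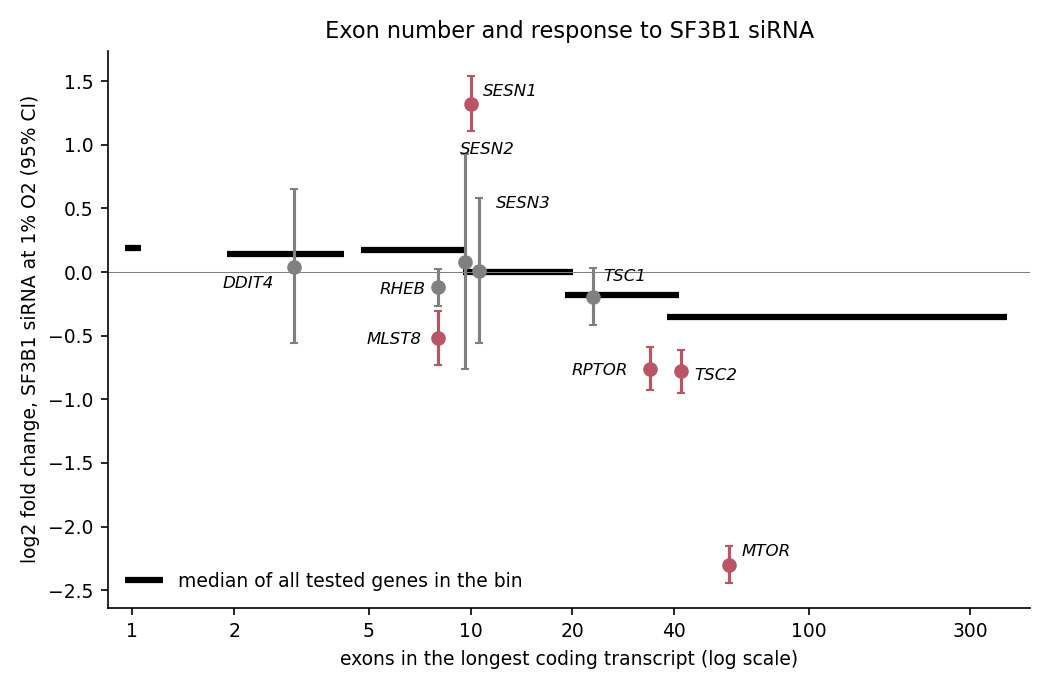
The x axis gives the number of exons on a log scale and the y axis the log2 fold change with SF3B1 siRNA at 1% oxygen; points are the 10 members with 95% CI, red where called, and black lines are medians of all tested genes in bins of exon number. SESN2 and SESN3, with 10 exons each, are drawn slightly to the side of SESN1. MTOR lies far below the median of -0.35 in its bin, and SESN1 above that of 0.00.

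Other genes of the pathway were described through 8 lists with 86 tested genes. In hypoxia 6 of these were called, 4 higher and 2 lower, or 6.98% against 5.65% of all genes; with the sets as a block 12 were called, 14.0% against 12.5%. DEPTOR, an inhibitor that binds the kinase MTOR, rose most. It stood at 2.13 and 1.97 log2 CPM at 21% oxygen and at 4.31, 4.5 and 4.48 at 1% oxygen with control siRNA, a log2 fold change of 2.38 (SE 0.13, limma adjusted p = 4.39e-06), close in size to that of DDIT4. BMT2, which encodes the sensor of S-adenosylmethionine SAMTOR, rose by 0.89 (SE 0.112, adjusted p = 0.00104). RRAGA, a Rag GTPase, rose by 0.49 (adjusted p = 0.00492), RRAGC, its partner, fell by 0.40 (adjusted p = 0.0203), and EEF2K, the kinase of elongation factor eEF2, rose by 0.56 (adjusted p = 0.0305). These last 3 calls were lost without library 1 (adjusted p = 0.0655, 0.0691 and 0.131) and without library 4 (0.0525, 0.222 and 0.228). Those of RRAGC and EEF2K were also lost without library 2 (0.0717 and 0.0975), without library 8 (0.0648 and 0.0737) and without 8 and 9 together (0.0547 and 0.128), and that of EEF2K without library 9 (0.0512). The other gene called was HIF1A, which encodes the oxygen-regulated HIF-1 subunit, at -1.65 (adjusted p = 0.000222). Limma called 0 genes, with or without the block, in 3 lists. They were PI3K and AKT input (11 tested), AMPK and LKB1 input (10) and TBC1D7 with RHEBL1 (2). Limma voom on the recovered reads also called 0 in them. At an unadjusted p under 0.05 there were 0 in any of these lists without the block and 0 with voom, and with the block there were 1, 2 and 1 in the order of the lists given. The genes with the largest fold changes in the AMPK and LKB1 list and in the list of TBC1D7 with RHEBL1 were PRKAB2 at 0.30 and RHEBL1 at 0.52.

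With SF3B1 siRNA 56 of the 86 genes were called, 38 higher and 18 lower, or 65.1% against 66% of all genes. By direction these shares were 44.2% higher and 20.9% lower against 35.0% and 30.9% over all genes. With plain read totals 33 were higher and 27 lower, or 38.4% and 31.4% of the 86. Over all 13112 genes 3540 were then higher and 4964 lower. The count as a whole is at the background. The counts of single lists below are to be read against the same shares over all genes. These are 35.0% higher and 30.9% lower, or 39.2% and 34.5% with the sets as a block. No list was tested as a set.

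Among 8 tested partners of the 2 mTOR complexes 3 fell and 5 did not pass the test, with a median of -0.09 against 0.033 over all genes. TTI1, which helps assemble kinases of the mTOR family, fell by 0.61 (limma adjusted p = 6.16e-05), MAPKAP1, an mTORC2 subunit, by 0.25 (adjusted p = 0.00293) and DEPTOR by 0.48 (adjusted p = 0.00443). DEPTOR stood at 4.09, 4.0 and 3.76 log2 CPM, still above the 2.13 and 1.97 of the libraries at 21% oxygen; its call with SF3B1 siRNA was lost without libraries 8 and 9 (-0.35, adjusted p = 0.0553). TBC1D7, the smallest subunit of the TSC complex, rose by 0.71 (adjusted p = 4.78e-05), while TSC1 and TSC2 gave -0.20 and -0.78.

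On the amino acid branch, 7 of 13 Rag and Ragulator genes rose and 2 fell (7 and 4 with plain read totals); their median was 0.35. RRAGC stood at 5.58, 5.61 and 5.6 log2 CPM with control siRNA and at 6.95, 6.98 and 7.17 with SF3B1 siRNA, a log2 fold change of 1.44 (SE 0.0742, limma adjusted p = 2.5e-07). RRAGB rose by 1.16 (adjusted p = 1.7e-06), and LAMTOR3 and LAMTOR1, which anchor the Rag GTPases on the lysosome, by 0.85 and 0.75. Of 15 GATOR, KICSTOR and sensor genes 7 were higher and 4 lower, and their median of 0.08 turned to -0.05 with plain read totals (5 and 5). WDR59, a GATOR2 subunit, fell by 1.11 (adjusted p = 3.36e-06) and DEPDC5, a GATOR1 subunit, by 0.62, while the GATOR2 genes SEH1L and SEC13, which also belong to the nuclear pore, rose by 0.66 and 0.57.

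On the growth factor and energy branches, 3 of 11 genes of PI3K and AKT input rose and 2 fell (3 and 4 after scaling to plain read totals, 3 and 1 after median-centring). IRS2, an insulin receptor substrate, rose by 1.13 (limma adjusted p = 1.33e-05) and IRS1, another such substrate, by 0.42, and AKT2 fell by 0.49 (adjusted p = 8.85e-05). Of 10 AMPK and LKB1 genes 4 rose and 4 fell, with STRADA, the pseudokinase partner of LKB1, at -1.18 (adjusted p = 2.53e-06) and PRKAB1, an AMPK subunit, at 1.15 (adjusted p = 3.42e-06). CAMKK2, a kinase that activates AMPK, fell by 0.92, and CAB39, another LKB1 partner, rose by 0.67.

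Of 16 effectors 9 rose and 3 fell (7 and 5 with plain read totals, 7 and 4 with quantile normalization), with a median of 0.29. PDCD4, a translation inhibitor degraded after phosphorylation by S6 kinase, stood at 4.0, 3.85 and 3.91 log2 CPM with control siRNA and at 5.29, 5.23 and 5.28 with SF3B1 siRNA, a rise of 1.35 (SE 0.0932, limma adjusted p = 1.19e-06). EIF4EBP2, which binds and blocks EIF4E, fell by 1.19 (adjusted p = 2.48e-06), and EIF4E, the cap-binding factor, rose by 0.85 (adjusted p = 1.1e-05). TFE3, a transcription factor of lysosomal genes held in the cytoplasm by mTORC1, rose by 0.59. Of 11 transcription factors and stress genes listed for DDIT4 and the sestrins 7 rose and 4 did not pass the test, with a median of 0.55 (10 rose with the block, 6 with plain read totals). HIF1A rose by 0.89 (adjusted p = 0.000429), FOXO3 by 0.59 (adjusted p = 0.00161), NFE2L2, which encodes NRF2, by 0.56 (adjusted p = 0.000155) and EPAS1, which encodes HIF-2alpha, by 0.43 (adjusted p = 0.000105). Protein and phosphorylation were not measured in the data used here, so the activity of mTORC1 is not given by these values. Markers of cell type also moved in this comparison, and not all one way. The summed level of the 5 ductal markers was 4630 to 6010 CPM with control siRNA at 1% oxygen and 7880 to 10700 CPM with SF3B1 siRNA. KRT8 (0.78), KRT18 (0.58) and KRT19 (0.83) rose, KRT7 fell by 1.44 (limma adjusted p = 3.68e-05) and EPCAM gave 0.00. CD14 rose by 1.16 (adjusted p = 0.0028), and COL1A1 (-0.77, adjusted p = 0.147) and PDGFRB (-0.82, adjusted p = 0.0642) were called lower with the sets as a block but not without it. The fibroblast sum was 22.3 to 54.4 CPM with control siRNA and 12.7 to 36.4 CPM with SF3B1 siRNA. The part of these markers in the results was not tested.

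**Figure D5:**
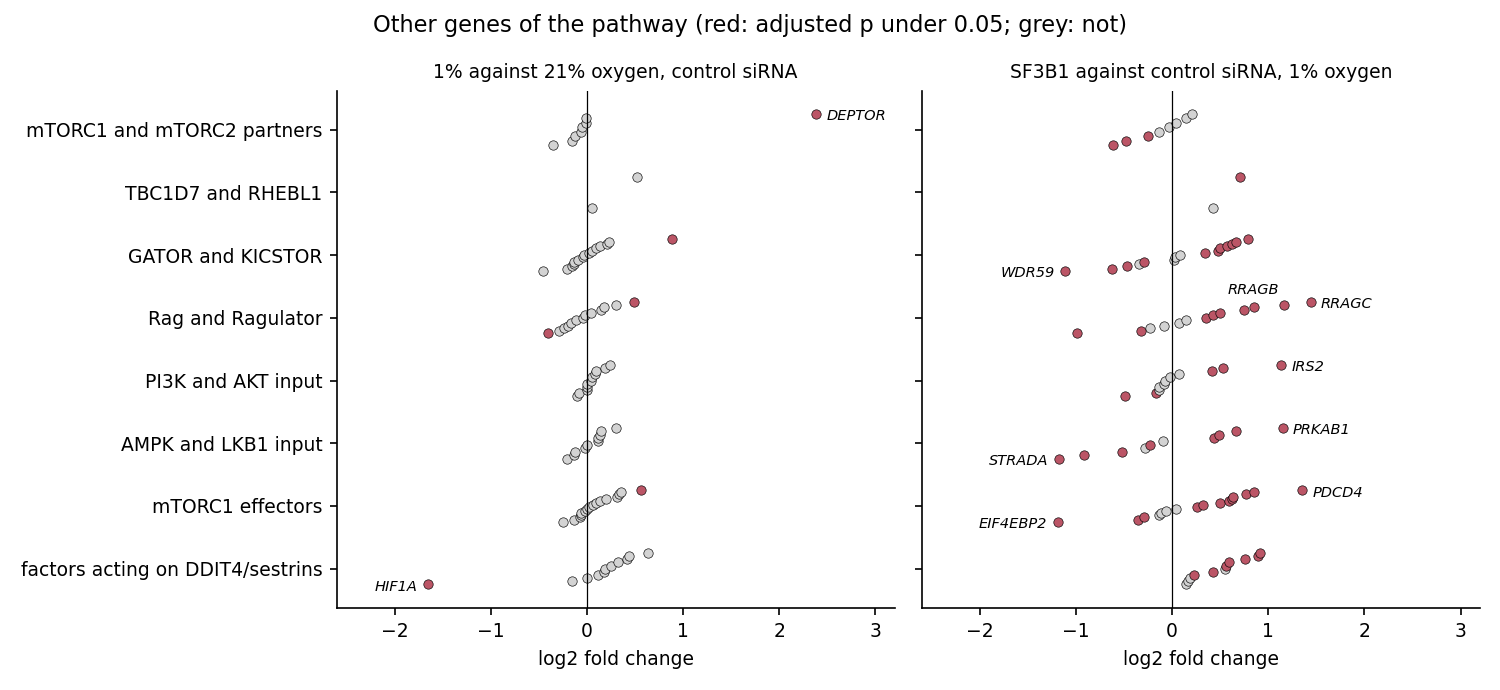
Each point is the log2 fold change of a tested gene of the 8 lists, spread within its row by rank, for hypoxia on the left and SF3B1 siRNA on the right; red marks an adjusted p under 0.05, and called genes beyond 1.1 in size are named. In hypoxia DEPTOR stands alone at 2.38 on the right, and with SF3B1 siRNA red points lie on both sides in most rows.

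The genes whose log2 CPM followed a brake most closely over the 8 libraries were found by Pearson's r among 12042 tested genes with a symbol and a mean log2 CPM of at least 1, as a description. For DDIT4 they were ABL1 (r = 0.994), PFKFB3 (0.988) and ADM (0.987), whose hypoxia log2 fold changes were 0.69, 1.81 and 1.92 and whose SF3B1 siRNA fold changes lay between -0.07 and 0.15. For SESN1 they were PRAME (0.999), UBN2 (0.997) and UBE2V2 (0.996), with SF3B1 siRNA log2 fold changes of 0.18, 0.54 and 0.68. For SESN2 they were TNFAIP3 (0.965), EFNA1 (0.961) and C1QTNF1 (0.96), and for SESN3 CNN2 (0.979), LOC100996447 (0.953) and SIRPA (0.886). Pearson's r ignores the size of a change, and with 8 libraries in 3 groups and 3 sets a high r follows from few differences.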

How the data were processed

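RNA was sequenced from 8 Panc1 libraries. Per the labels' protocols a stranded Illumina kit was used and a ribosomal RNA depletion is mentioned. The submitters' processing notes name the build GRCh38.p13 and, without roles or order, edgeR 3.24.3, Subread 1.5.0, featureCounts, SAMtools 1.9, STAR 2.7.0a and Trimmomatic 0.35; the gene filter and strand setting are not given in the sources used here. The authors deposited log2 CPM values for 15176 genes. The values step as whole reads: 100.0% came back whole within 0.01 read once a prior averaging 2.0 reads was removed. A count of 3 reads equals 0.158 CPM in the library with the fewest reads.

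Genes with a mean log2 CPM above 0 were tested (13112; 2064 left out). limma 3.58.1 in R 4.3.3 was fitted to the log2 values as deposited, with 1 mean per group, all 8 libraries, 5 residual degrees of freedom and an intensity trend; tests were two-sided and p-values adjusted by Benjamini-Hochberg over the genes tested, with 0.05 as the threshold. Code was tested on simulated data. Title numbers fall into sets (1 to 3, 4 to 6, 8 with 9). Deviations from group means correlated at 0.34 to 0.43 within sets and at -0.42 to 0.06 between them. Because the deviations in a group cancel out, values between sets are lowered by construction, and those of libraries 1 and 4 mirror each other. The contrast is thus partly fixed in advance. The sets were taken as pairing the libraries. This comes from the data, not the labels, and the fit with the set as a block is given where it changes a call. Positions, exon numbers and overlaps are from GENCODE release 29 (GRCh38), promoters from RefSeq (GRCh38.p14). The members and lists were chosen with earlier results of these data known. The text names all members, for hypoxia and SF3B1 siRNA up to 4 called genes per list by smallest p (in lists with no call, the gene of largest fold change), and the 3 genes most like each brake. ATF4, DDIT3, TRIB3, the cell type markers and FANCD2 were named after their values were seen, and some genes that the rule names are not reported here. Alternatives were other filters, scalings and prior counts, voom on recovered reads, fits to 2 groups, the block and leaving out each library.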

Additional observations from a re-analysis of the deposited data

How the results depend on the processing

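The calls and directions of DDIT4 in hypoxia and of MTOR, TSC2, RPTOR, MLST8 and SESN1 with SF3B1 siRNA were kept under all 18 alternatives run for each, with log2 fold changes of 2.26 to 2.74, -2.43 to -2.23, -0.91 to -0.73, -0.89 to -0.69, -0.65 to -0.44 and 1.19 to 1.38. The fit with the library sets as a replicate block called 2 members in hypoxia against 1, 1645 genes against 741 and 12 list genes against 6; it added SESN1 in hypoxia and TSC1 and RHEB with SF3B1 siRNA and ended no call of a member; SESN2 and TSC1 were added against control siRNA at 21% oxygen. Leaving out each library in turn gave 278 to 881 genes in hypoxia and 3 to 6 list genes, with 278 without library 1, 306 without library 4, 418 without library 2 and 411 without library 8; 1 normoxic library remains without 1 or 4 and is assumed to vary like the other groups. It gave 3 list genes without library 1 and 3 without library 4. Without libraries 8 and 9, an alternative chosen after seeing the data, 334 genes were called in hypoxia. With plain read totals the hypoxia calls were 505 higher and 275 lower against 570 and 171, and those of SF3B1 siRNA against control siRNA at 21% oxygen were 3161 and 4841 against 4473 and 3705, where the call of EPAS1 was lost too (0.12, adjusted p = 0.16); the cause was not tested. Of 537 member values under alternatives 520 stayed called in the same direction or stayed uncalled. The sign of uncalled values was not counted, and it turned in some, such as DDIT4 with SF3B1 siRNA (-0.25 to 0.32). SESN3, with 22 to 49 reads per library, has the fewest reads of the members; what counting and the library sets each add to its spread was not tested.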
